A study of Mus musculus with 11 samples.

Results

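Genes with a higher mean level in beta than in non-beta cell libraries were compared between beta cell fractions. The sample labels call these fractions NNAT-positive and NNAT-negative (NNAT+ and NNAT- below). A gene was counted as beta-enriched where its mean over the 8 beta cell libraries was at least 5 CPM (a gene's count relative to the total of its library) and at least 2 times its mean over the 3 non-beta libraries. The rule took in 924 of the 55401 genes counted, and all 924 were among the 14489 genes expressed highly enough to be tested. They were chosen by their measured levels in beta and non-beta cells. Of them, 191 did not pass with mice 1 to 3 alone, the mice that gave non-beta libraries. The rule itself does not use the difference between the fractions.

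The samples were 11 RNA-seq libraries of islet cells sorted by FACS from 4 chow-fed male C57BL6/J mice, aged 10 weeks by the labels. All of the mice, and so all 3 groups of libraries, carried the same 3 transgenes, RIP-Cre, STOP-tdTomato and Nnat-EGFP. Each mouse gave 1 NNAT+ and 1 NNAT- beta cell library (n = 4 each), and mice 1 to 3 also gave 1 library of non-beta cells (n = 3). RIP-Cre is driven by the rat insulin promoter, so that tdTomato marks cells in which that promoter has been active. The eGFP reports the activity of a transgenic *Nnat* promoter, not the amount of neuronatin itself. Total counts were between 37438669 and 43238376 in the NNAT+, 30420352 and 38532215 in the NNAT- and 35993622 and 40834007 in the non-beta libraries.

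Beta cells are the only islet cells that make insulin in quantity. They take up glucose, close ATP-sensitive potassium channels as it is metabolised, and release insulin and amylin from dense-core granules when calcium enters. Their identity is held by transcription factors such as MAFA, PDX1 and NKX6-1. *Nnat* encodes neuronatin, a small membrane protein of the endoplasmic reticulum (ER) that is expressed from the paternal allele and takes part in the processing of preproinsulin.

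The beta-enriched genes ranged from 5.01 to 175981 CPM in beta cells, with a median of 50.8, and *Ins2* was the highest. Their median ratio of beta to non-beta CPM was 2.77. The annotation matched 923 of them, 853 as protein-coding genes and 30 as long intergenic noncoding RNAs. Together they took 35.8 to 43.7% of all counts in the NNAT+, 36.0 to 50.2% in the NNAT- and 5.67 to 7.90% in the non-beta libraries. *Ins1* and *Ins2* alone took 18.0 to 26.9%, 17.8 to 34.4% and 0.97 to 2.34% of the counts. The 9 beta cell markers checked were present in all beta libraries, with a summed level of 204699 to 297052 CPM in NNAT+ and 204709 to 371590 CPM in NNAT- against 11976 to 26914 CPM in non-beta cells.

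*Nnat*, the gene whose promoter drove the sort, was measured first. Values per library here are CPM scaled by TMM, a factor that evens out the library's composition. *Nnat* stood at 47.8, 44.9, 44.1 and 101 CPM in mice 1 to 4 of the libraries labelled NNAT+ and at 74.0, 81.8, 64.2 and 154 CPM in those labelled NNAT-. In each of the 4 mice the NNAT+ library had less, although the groups overlapped because mouse 4 was high in both. The log2 fold change of NNAT+ against NNAT- was -0.66 (SE 0.08, n = 4 mice), with an adjusted p of 0.0109 (quasi-likelihood test of edgeR, mouse as a block). The labels and the measured *Nnat* thus ran in opposite directions. A listing of these libraries by the study carries the 2 fraction names the other way round from the sample labels. Every direction given here is by the sample label, and the sign of each difference would turn if the labels were exchanged.

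Among the 924 beta-enriched genes, 1 rose and 3 fell in the labelled NNAT+ fraction, passing an adjusted p of 0.05 in the quasi-likelihood test of edgeR. *Slc2a13*, a proton-coupled myo-inositol transporter, was higher. *Nnat*, *Cntn1*, a neuronal cell adhesion molecule of the contactin family, and *Spc25*, a component of the NDC80 kinetochore complex, were lower. Over all 14489 genes tested, 0.173% were called higher and 0.0276% lower, and this test is what "called" refers to below unless another tool is named. By these counts 24 of the 25 genes called higher and 1 of the 4 called lower were not beta-enriched. In bulk libraries, fewer cells of a kind and less RNA per cell cannot be told apart.

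The promoters of these 4 genes are shown as the 250 bases before the RefSeq start on GRCm38.p6, 5′ to 3′ on the gene's strand, because *Nnat*'s promoter is the element behind the reporter and CpG sites are where DNA methylation acts. CpG dinucleotides are in capitals, and both strands carry the same CpG sites.
Nnat: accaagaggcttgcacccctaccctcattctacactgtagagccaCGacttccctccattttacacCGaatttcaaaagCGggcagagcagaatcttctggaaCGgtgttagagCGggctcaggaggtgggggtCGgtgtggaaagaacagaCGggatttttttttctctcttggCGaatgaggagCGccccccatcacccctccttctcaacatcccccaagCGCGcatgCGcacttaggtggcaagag
Cntn1: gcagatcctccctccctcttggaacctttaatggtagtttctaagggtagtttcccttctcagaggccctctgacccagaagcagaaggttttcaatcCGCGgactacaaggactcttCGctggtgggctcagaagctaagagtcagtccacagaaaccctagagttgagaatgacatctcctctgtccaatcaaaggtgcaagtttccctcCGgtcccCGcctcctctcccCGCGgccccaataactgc
Spc25: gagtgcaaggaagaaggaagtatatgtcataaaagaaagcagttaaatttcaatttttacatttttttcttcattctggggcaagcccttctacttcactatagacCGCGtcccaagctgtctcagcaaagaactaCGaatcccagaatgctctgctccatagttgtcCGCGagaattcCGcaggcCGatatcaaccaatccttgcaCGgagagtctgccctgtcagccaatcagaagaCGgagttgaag
Slc2a13: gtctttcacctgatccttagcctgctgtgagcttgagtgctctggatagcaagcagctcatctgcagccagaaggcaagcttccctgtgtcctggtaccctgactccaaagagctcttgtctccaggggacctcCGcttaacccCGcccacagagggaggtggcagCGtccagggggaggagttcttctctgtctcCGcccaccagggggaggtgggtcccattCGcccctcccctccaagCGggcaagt
The *Nnat* window, chr2:157559828-157560077 on the plus strand, held 12 CpG sites, more than 66.5% of the 32851 promoters listed, whose median was 6. The windows of *Cntn1* (chr15:92050915-92051164, plus strand), *Spc25* (chr2:69206214-69206463, minus strand) and *Slc2a13* (chr15:91573262-91573511, minus strand) held 7, 9 and 6. These counts describe letters, and no methylation was measured in these libraries.

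The transcribed part of *Nnat* (ENSMUSG00000067786.16) lies at chr2:157560078-157562522 on the plus strand, and 87 of its exonic bases are shared with *Gm23134* on the opposite strand. *Cntn1* (ENSMUSG00000055022.14) spans chr15:92051165-92341967 on the plus strand. It was at 145, 169, 128 and 89.4 CPM in mice 1 to 4 of the labelled NNAT+ fraction and at 179, 225, 200 and 135 CPM in the NNAT- fraction. Every mouse had less in NNAT+, while the groups overlapped across mice. The log2 fold change was -0.49 (SE 0.07), with an adjusted p of 0.0313 in edgeR's quasi-likelihood test.

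*Spc25* (ENSMUSG00000005233.16, chr2:69193895-69206194, minus strand) lies 4878 bases from *G6pc2*, another beta-enriched gene on the opposite strand. It was at 207, 177, 236 and 184 CPM in NNAT+ and 265, 260, 292 and 238 CPM in NNAT-. The 2 groups did not overlap, the highest NNAT+ value falling just short of the lowest NNAT- value. The log2 fold change was -0.40 (SE 0.06), with an adjusted p of 0.0338 in edgeR's quasi-likelihood test. *G6pc2*, which opposes glucokinase by removing phosphate from glucose 6-phosphate, had a log2 fold change of -0.04 (95% CI -0.20 to 0.11) and was not called.

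*Slc2a13* (ENSMUSG00000036298.10, chr15:91267696-91573261, minus strand) was at 25.1, 29.8, 30.8 and 19.1 CPM in NNAT+ and 13.6, 15.9, 23.2 and 10.0 CPM in NNAT-. All 4 mice had more in NNAT+, with overlap between mice. The log2 fold change was 0.78 (SE 0.12), with an adjusted p of 0.0356 in edgeR's quasi-likelihood test. These 4 calls rested on the pairing by mouse and on most of the mice. Without the mouse block none was called, where 0.0069% of all genes tested were called higher, and leaving out mouse 1, 3 or 4 left none, while leaving out mouse 2 left *Nnat*, *Cntn1* and *Spc25* and added *P2ry1*. No beta-enriched gene passed the stricter thresholds of the study, an adjusted p of 0.01 and a 2-fold change, which 0.0483% of all genes tested passed upward.

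**Figure D1:**
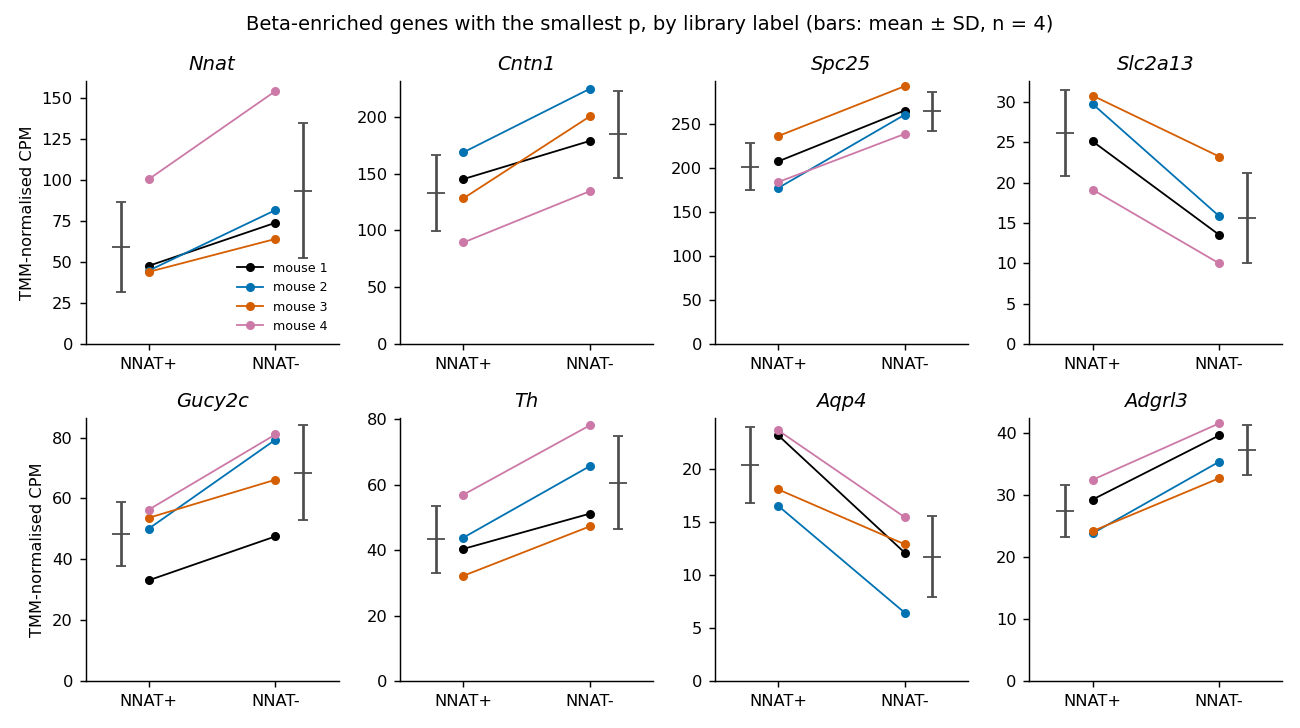
Expression of the 8 beta-enriched genes with the smallest p in each beta cell library, as TMM-normalised CPM on an axis from 0, with NNAT+ and NNAT- as labelled. Each line joins the 2 libraries of 1 mouse and the bars at the sides give the mean ± SD (n = 4). In all 8 genes the 4 lines run the same way, and the lines of *Nnat* show mouse 4 above the other mice at 101 and 154 CPM.

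Beyond the calls, the genes with the next smallest p were values short of the threshold. *Gucy2c*, the guanylyl cyclase receptor for guanylin and uroguanylin, was at 33.1, 50.1, 53.6 and 56.3 CPM in NNAT+ and 47.5, 79.3, 66.1 and 81.0 CPM in NNAT-, giving a difference of -0.50 on the log2 scale (SE 0.08, adjusted p = 0.0707, edgeR). *Th*, tyrosine hydroxylase, which starts catecholamine synthesis and marks a subset of beta cells, was at 40.4, 43.8, 32.1 and 56.9 CPM against 51.2, 65.7, 47.3 and 78.2 CPM, giving -0.48 on the log2 scale (SE 0.08, adjusted p = 0.0728, edgeR). Both genes had lower values in the labelled NNAT+ library of each mouse.

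*Aqp4*, a water channel, had the largest fold difference toward NNAT+ among the genes with 4 of 4 mice in 1 direction. Its values were 23.2, 16.5, 18.1 and 23.6 CPM in NNAT+ and 12.1, 6.44, 12.9 and 15.4 CPM in NNAT-. The groups did not overlap, and the log2 fold change of 0.84 (SE 0.15) had an adjusted p of 0.0983 in edgeR's quasi-likelihood test. It was the only beta-enriched gene whose groups stood apart in this direction, where 1.52% of all genes tested did so. In the other direction 10 beta-enriched genes stood apart, against 0.718% of all genes tested: *Spc25*, *Adgrl3*, *Syt4*, *Mpp3*, *Cdh8*, *Akap6*, *Ero1lb*, *Smim1*, *Tnfrsf9* and *Ttc32*, of which edgeR called *Spc25* alone and DESeq2 also called *Adgrl3* and *Syt4*. *Cdh8*, *Akap6*, *Smim1*, *Tnfrsf9* and *Ttc32* were named after their values were seen.

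*Npy*, neuropeptide Y, which is made by immature beta cells and sympathetic nerves, had the most negative log2 fold change among the 924 beta-enriched genes, -0.94 (SE 0.19, adjusted p = 0.163, edgeR). It was low, at 4.84, 6.47, 7.12 and 5.28 CPM in NNAT+ and 6.52, 19.1, 13.4 and 9.44 CPM in NNAT-. Mouse 2 alone spanned nearly the whole range. *Adgrl3*, a latrophilin adhesion receptor, had a log2 fold change of -0.45 (SE 0.09), from 23.8 to 32.5 CPM in NNAT+ and 32.7 to 41.6 CPM in NNAT-. *Syt4*, a synaptotagmin of the secretory granule, was at 178 to 219 CPM in NNAT+ and 228 to 274 CPM in NNAT- (log2 fold change -0.30, SE 0.06). *P2ry1*, a purinergic receptor for ADP, spread more between mice than between fractions, from 73.8 to 237 CPM in NNAT+ and 101 to 313 CPM in NNAT-, with a log2 fold change of -0.33 (SE 0.07). *Myo15b*, *Igsf11* and *Mpp3* had log2 fold changes of -0.47, -0.49 and -0.39.

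With DESeq2 as the test, 3 beta-enriched genes were called higher and 17 lower, where 0.78% and 0.145% of all genes tested were called. The 4 called by edgeR were among them, together with *Gucy2c*, *Th*, *Aqp4*, *Npy* and others named here, and with 4 genes named only after their values were seen. *Ccnd2*, cyclin D2, which supports beta cell replication, was at 1940, 1881, 1938 and 1562 CPM in NNAT+ and 2074, 2626, 2304 and 1858 CPM in NNAT-. *Atp6ap2*, an accessory protein of the vacuolar proton pump that acidifies granules, was at 322 to 437 CPM against 398 to 581 CPM. *Lifr*, the leukaemia inhibitory factor receptor, was at 127 to 147 CPM against 146 to 172 CPM, and *Camk2n1*, an inhibitor of calcium/calmodulin-dependent kinase II, at 411 to 590 CPM against 479 to 727 CPM. In all 4 genes each mouse had less in the NNAT+ library, by a log2 fold change of -0.27 for *Ccnd2*, -0.25 for *Atp6ap2*, -0.23 for *Lifr* and -0.24 for *Camk2n1*, and the adjusted p values of edgeR were 0.271 to 0.437.

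Toward NNAT+, fold differences were smaller after *Slc2a13* and *Aqp4*. *Sez6l*, a seizure-related membrane protein and BACE2 substrate of beta cells, was at 416, 437, 486 and 353 CPM in NNAT+ and 360, 365, 431 and 282 CPM in NNAT-, with a log2 fold change of 0.24 (SE 0.05). *Insrr*, the insulin receptor-related receptor, which senses alkaline pH, had a log2 fold change of 0.18 (SE 0.06) and was highest in mouse 4 in both fractions. *Galr1*, a galanin receptor, had one of 0.25 (SE 0.09), and *Slc25a29*, a mitochondrial carrier of basic amino acids, one of 0.40 (SE 0.13). *Col6a6*, *Slco1a6*, *Ccdc162*, *Lgi1*, *Cdhr1* and the lincRNA *2900076A07Rik* had log2 fold changes of 0.23, 0.29, 0.35, 0.27, 0.24 and 0.65, the last in 3 of 4 mice and the others in 4 of 4. Without mouse 2, *Ccdc162* had 0.21 and *Cdhr1* 0.11, and without mouse 1 *2900076A07Rik* had 0.40. None of these genes was called by edgeR, and DESeq2 called *Sez6l*.

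Read over all members, the differences were small. The 95% CI of the log2 fold change lay wholly within 1 either way in 903 of 924 beta-enriched genes (74.1% of all genes tested). It lay within 0.5 either way in 751 (55.7% of all genes tested). These shares are not matched for level, and the median SE was 0.092 in beta-enriched genes and 0.13 in all genes tested. The median size of the log2 fold change was 0.095 in beta-enriched genes. It was 0.086 in 8317 genes of at least 5 CPM that were enriched in neither beta nor non-beta cells. At an unadjusted p below 0.05, 20 beta-enriched genes were higher in NNAT+ (2.16%, beside 4.07% of all genes tested) and 106 were lower (11.5%, beside 2.95%). Scaling by the column totals alone gave 33 and 30 beside 888 and 111 of all genes tested, and TMM factors from the beta-enriched genes alone gave 49 and 47 beside 1015 and 159. Another scaling moves nearly all genes by one amount, so that these counts move with it for the beta-enriched genes and all genes alike. In 4 of 4 mice, 37 were higher (9.65% of all genes tested) and 165 were lower (8.22% of all genes tested).

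The median log2 fold change of the beta-enriched genes was -0.035, and it was 0.033 with scaling by column totals, 0.0092 with factors from the beta-enriched genes alone and 0.0044 in the fit of all 11 libraries. By mouse it was -0.039, -0.017, -0.079 and -0.023 (SD 0.028, n = 4). The median of all genes tested was 0.012, and the distance of the beta-enriched genes from it was -0.048 under each of these scalings. Genes with at least 2 times more in non-beta cells lay on the other side, with a median of 0.20 over 1841 tested. Of these, edgeR called 21 higher and 0 lower. At an unadjusted p below 0.05 in the same test, 271 (14.7%) were higher and 12 (0.652%) lower. The shares over all genes tested were 4.07% and 2.95%.

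Transcripts of other islet hormone cells moved with the fractions, and those of the remaining cell types did not all do so. The summed level of 7 alpha cell markers was 2250 to 3483 CPM in NNAT+, 1022 to 1930 CPM in NNAT- and 135810 to 168375 CPM in non-beta cells. For 4 delta cell markers the sums were 1570 to 2323, 523 to 910 and 7813 to 13568 CPM, and for the PP cell hormones *Ppy* and *Pyy* they were 303 to 393, 85.8 to 155 and 2104 to 3812 CPM. All of these sums were higher in the library labelled NNAT+ in 4 of 4 mice, and 2 alpha, 2 delta and 2 PP markers were called. The endothelial sum, 0.28 to 9.32 CPM in NNAT+ and 0.12 to 0.99 CPM in NNAT-, and the glial sum, 9.37 to 15.6 and 5.64 to 12.6 CPM, were also higher in NNAT+ in 4 of 4 mice. All 12 acinar genes had log2 fold changes above 0, with sums of 12.7 to 2362 CPM in NNAT+ and 51.2 to 601 CPM in NNAT-, higher in 3 of 4 mice. Ductal, leukocyte and stellate sums were 376 to 535, 47.9 to 86.7 and 1.66 to 4.78 CPM in NNAT+ and 391 to 514, 51.1 to 67.5 and 0.053 to 3.19 CPM in NNAT-. They were higher in NNAT+ in 3, 1 and 2 of 4 mice, and the erythroid sum in 0. No endothelial or erythroid gene was expressed highly enough to be tested, and of the acinar, ductal, leukocyte, stellate and glial lists 12, 8, 6, 2 and 2 genes were tested and none was called. The part of these transcripts in the differences of the beta-enriched genes was not tested.

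Across the range of enrichment, the median log2 fold change went from -0.028 in 683 genes with a beta to non-beta ratio of 2 to under 4, through -0.040 in 133 genes at 4 to under 8 and -0.065 in 72 at 8 to under 16, to -0.12 in 36 genes at 16 or more. The share lower at an unadjusted p below 0.05 was 9.08, 12, 26.4 and 25% in these bins, and the share higher was 1.32, 3.76, 8.33 and 0%. By mouse the medians of the 4 bins did not fall in order: they were -0.014, -0.019, 0.022 and -0.088 in mouse 2, and -0.076, -0.086, -0.15 and -0.064 in mouse 3. With the ratio taken from mice 1 to 3, the ones with a non-beta library, the bins held 551, 122, 53 and 35 genes, with medians of -0.036, -0.050, -0.12 and -0.12. No gene of the last bin was called. The first 3 bins had 1 gene each called lower, and the first also held *Slc2a13*. Near the thresholds of the rule, *Lrrc36*, *Map3k19* and *Lhx1* were just inside the limit on level, at 5.01 to 5.15 CPM, and *Il1r2*, *Fabp3* and *Gm19461* just outside, at 4.92 to 4.99 CPM. *Chn1*, *Ttc19* and *Ppip5k1* were just inside the limit on the ratio, at 2.001 to 2.004, and *Gm12940*, *Hdlbp* and *Cerkl* just outside, at 1.997 to 1.9996.

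**Figure D2:**
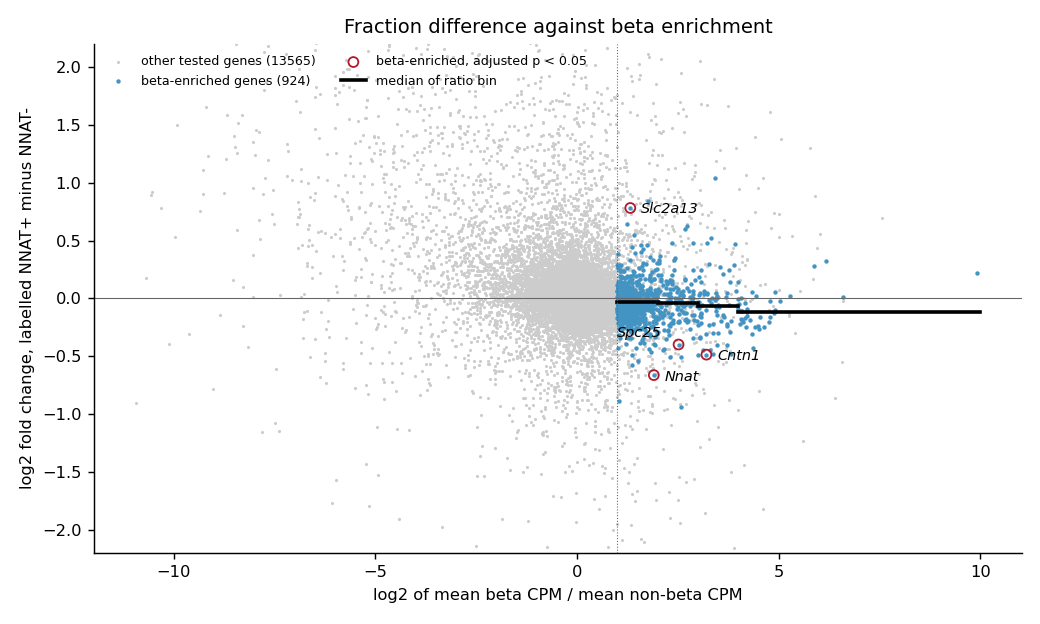
Log2 fold change of NNAT+ against NNAT- as labelled (vertical axis) against the log2 ratio of mean beta to mean non-beta CPM (horizontal axis), 1 point per gene tested. Beta-enriched genes are blue, called ones ringed, and black lines are the medians of the 4 ratio bins, from -0.028 to -0.12; 140 other genes lie beyond the vertical axis and 53 without a finite ratio above 0 are not drawn.

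The beta-enriched genes of insulin production itself had log2 fold changes between -0.21 and 0.01, each with a 95% CI that included 0. *Ins1* was at 68167, 72992, 80529 and 42145 CPM in NNAT+ and 75254, 118862, 79263 and 42394 CPM in NNAT-. The NNAT- library of mouse 2 was the one apart, and in mice 3 and 4 the fractions lay close together. The log2 fold change was -0.21 (95% CI -0.44 to 0.03), and without mouse 2 it was -0.041. *Ins2* had a log2 fold change of -0.18 (95% CI -0.42 to 0.05), with 2 mice in each direction, and -0.023 without mouse 2. *Iapp*, the gene of amylin, was 15938 to 21814 CPM in NNAT+ and 17402 to 25027 CPM in NNAT-, with a log2 fold change of -0.10 (95% CI -0.22 to 0.02). *Pcsk1*, the prohormone convertase that opens proinsulin, had one of 0.01 (95% CI -0.13 to 0.15). These were the 4 beta-enriched genes of the 9 listed for insulin, amylin and prohormone processing. None was called by edgeR or DESeq2, and their median was -0.14. With no filter on low counts edgeR called *Ins1* and *Ins2* lower.

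Of 22 islet transcription factors, 10 were beta-enriched, with a median of -0.029, and edgeR called none while DESeq2 called *Mafa* lower. *Mafa*, an activator of the insulin genes that marks mature beta cells, was at 848, 835, 918 and 635 CPM in NNAT+ and 1156, 971, 965 and 752 CPM in NNAT-. All 4 mice were lower in NNAT+, by most in mouse 1, but the log2 fold change of -0.24 (SE 0.06) had an adjusted p of 0.392 in edgeR's test. *Esrrg*, an orphan nuclear receptor of postnatal beta cell maturation, had a log2 fold change of -0.31 (95% CI -0.61 to -0.01), in 3 of 4 mice, and of -0.48 without mouse 1. *Pdx1*, *Nkx6-1*, *Neurod1* and *Insm1*, regulators of islet development, were within -0.07 to 0.00 in log2 fold change, each with a 95% CI that included 0. *Glis3* and *Mlxipl*, the latter encoding the glucose-responsive factor ChREBP, had log2 fold changes of 0.19 (95% CI -0.02 to 0.40) and 0.14 (95% CI -0.03 to 0.32).

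**Figure D3:**
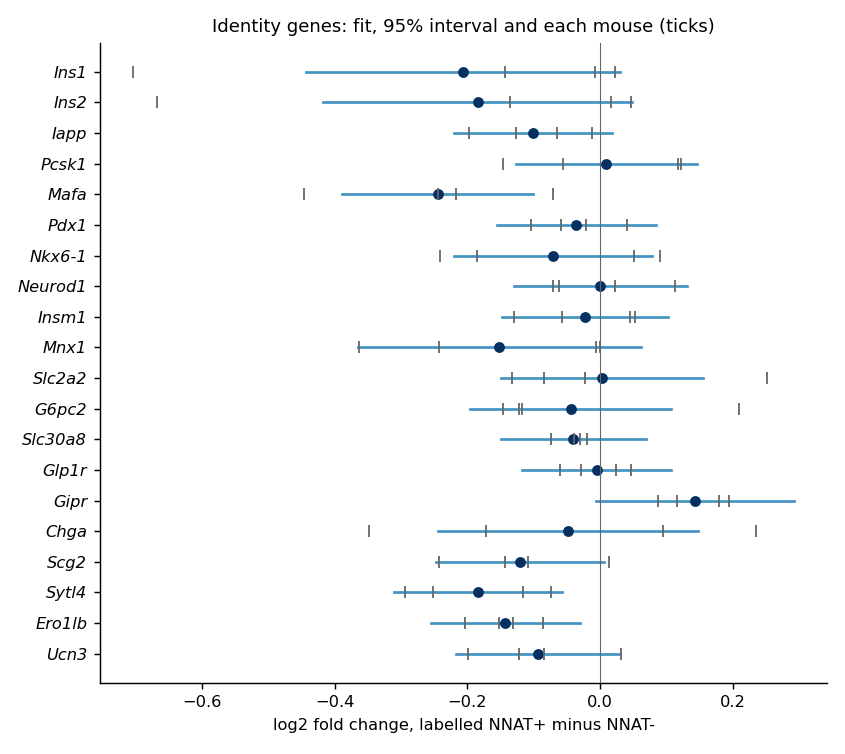
Log2 fold change of NNAT+ against NNAT- as labelled for 20 genes of beta cell identity and secretion. Circles are the fitted values, lines the 95% CIs and grey ticks the 4 mice. All intervals but those of *Mafa*, *Sytl4* and *Ero1lb* include 0, and the single tick far to the left for *Ins1* and *Ins2* is mouse 2.

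Glucose sensing and excitability gave 10 beta-enriched genes of 20 tested, with a median of -0.025 and no call. *Slc2a2*, the glucose transporter GLUT2, had a log2 fold change of 0.00 (95% CI -0.15 to 0.15). *Trpm5*, a calcium-activated cation channel, was at 133 to 176 CPM in NNAT+ and 161 to 199 CPM in NNAT-, with a log2 fold change of -0.25 (95% CI -0.42 to -0.08) with lower values in each mouse. *Atp2a2*, the ER calcium pump SERCA2, had one of -0.13 (95% CI -0.24 to -0.02). The calcium channel genes *Cacna1a*, *Cacna1c* and *Cacna1d* had values of 0.13, -0.01 and 0.07.

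Receptors for hormones and nutrients were the list with the most beta-enriched members, 13 of 21 tested, with a median of -0.019. None was called by edgeR, and *P2ry1* and *Prlr* were called lower by DESeq2. The incretin receptors *Glp1r* and *Gipr* had log2 fold changes of -0.01 (95% CI -0.12 to 0.11) and 0.14 (95% CI -0.01 to 0.29). *Prlr*, the prolactin receptor, was at 832, 761, 852 and 662 CPM in NNAT+ and 847, 995, 976 and 793 CPM in NNAT-, lower in each mouse, and its log2 fold change was -0.22 (95% CI -0.36 to -0.07). *Ffar1*, the receptor for long-chain fatty acids, had one of -0.10.

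The secretory granule list had 11 beta-enriched members of 22, with a median of -0.041 and none called. *Chga*, chromogranin A, ranged from 13542 to 17607 CPM in NNAT+ and 12683 to 21944 CPM in NNAT-, with a log2 fold change of -0.05 (95% CI -0.24 to 0.15). *Slc30a8*, the zinc transporter of insulin granules, had one of -0.04 (95% CI -0.15 to 0.07). *Sytl4*, granuphilin, which docks granules at the plasma membrane, was at 630 to 697 CPM against 692 to 773 CPM, with a log2 fold change of -0.18 (95% CI -0.31 to -0.06) and 4 of 4 mice lower. *Rab3a* had -0.21, in 3 of 4 mice, and -0.11 without mouse 2, and *Doc2b*, a calcium sensor of exocytosis, had -0.54 with a CI from -1.15 to 0.07.

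Genes of protein import into the ER and of the signal peptidase, which cuts preproinsulin, gave 6 beta-enriched members of 24, with a median of -0.064. *Spcs2* and *Spcs3*, subunits of the signal peptidase, were at 410 and 629 CPM in mouse 1 of NNAT+ and at 436 and 639 CPM in its NNAT- library. Their log2 fold changes were -0.10 (95% CI -0.22 to 0.02) and -0.07 (95% CI -0.18 to 0.05). *Sec11c*, the catalytic subunit, had -0.04 (95% CI -0.17 to 0.10), and *Srpr*, the receptor of the signal recognition particle, 0.03 (95% CI -0.09 to 0.15). *Srp54a*, low at 6.82 to 11.6 CPM in NNAT+ and 11.4 to 13.4 CPM in NNAT-, had -0.40 (95% CI -0.77 to -0.03), and -0.21 without mouse 2. Among 10 of 30 tested ER chaperone and unfolded protein response genes the median was 0.0053. *Ero1lb*, a beta cell oxidase that drives disulphide formation in proinsulin, was at 3537 to 3678 CPM in NNAT+ and 3874 to 4126 CPM in NNAT-. Its groups did not overlap, and its log2 fold change was -0.14 (SE 0.05, adjusted p = 0.677, edgeR).

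The 5 beta-enriched genes of 15 tested for beta cell maturity and heterogeneity, *Th*, *Npy*, *Cd63*, *St8sia1* and *Ucn3*, all had negative log2 fold changes, with a median of -0.20, of which edgeR called none and DESeq2 called *Th* and *Npy*. *Ucn3*, urocortin 3, a late marker of mature beta cells, was at 673, 679, 648 and 454 CPM in NNAT+ and 772, 664, 687 and 494 CPM in NNAT- (log2 fold change -0.09, 95% CI -0.22 to 0.03). *Cd63*, a tetraspanin of lysosomes and granules, had -0.14 (95% CI -0.27 to -0.001), and -0.081 without mouse 2. All 5 values stayed below 0 with scaling by column totals and with factors from the beta-enriched genes. Of 10 monoamine and GABA genes tested, 7 were beta-enriched. *Maob*, monoamine oxidase B, had a log2 fold change of -0.20 (95% CI -0.33 to -0.08), *Gad1*, which makes GABA, -0.17, and *Ddc*, DOPA decarboxylase, 0.07.

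Of 28 imprinted genes tested, 6 were beta-enriched and *Nnat* alone was called. By mice 1 to 3 alone, *Meg3*, *Rian*, *Mirg* and *Kcnq1ot1* were not beta-enriched, with ratios of 0.97, 0.96, 1.37 and 0.87. *Rasgrf1*, a Ras exchange factor expressed from the paternal allele, was at 142 to 178 CPM in NNAT+ and 160 to 208 CPM in NNAT-, with a log2 fold change of -0.20 (95% CI -0.34 to -0.06). The maternally expressed noncoding RNAs *Meg3*, *Rian* and *Mirg* had 0.21, 0.06 and 0.27, and *Meg3* had 0.095 without mouse 1. Cholesterol synthesis and uptake gave 8 of 20 genes with a median of -0.037, among them *Cyp51*, an enzyme of sterol synthesis, with -0.17 (95% CI -0.34 to -0.004), or -0.11 without mouse 4. Cell coupling gave 3 of 18, among them *Gjd2*, the gap junction protein connexin 36, with 0.05 (95% CI -0.07 to 0.16). Few members came from central metabolism. Of 80 respiratory chain genes tested 2 were beta-enriched, among them *Cox6a2*, a cytochrome c oxidase subunit, with -0.24, or -0.13 without mouse 2. *Pcx*, pyruvate carboxylase, was the member among 37 genes of glycolysis and the TCA cycle, with -0.07. The antioxidant list gave *Gpx2* (-0.35) and *Nqo1* (-0.001) of 23, and the lists of immediate early genes and membrane peptidases gave none. The medians of 12 of the 15 lists with members were below 0. Scaling by column totals moves the median of all genes tested from 0.012 to 0.080, and the lists with it. The medians of the granule, transcription factor, glucose sensing, receptor, cholesterol and monoamine lists, all nearer to 0 than that shift, turned positive there. They did so too with factors from the beta-enriched genes. The median of the ER import list turned positive with column totals, at 0.0040, and was -0.020 with those factors.

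**Figure D4:**
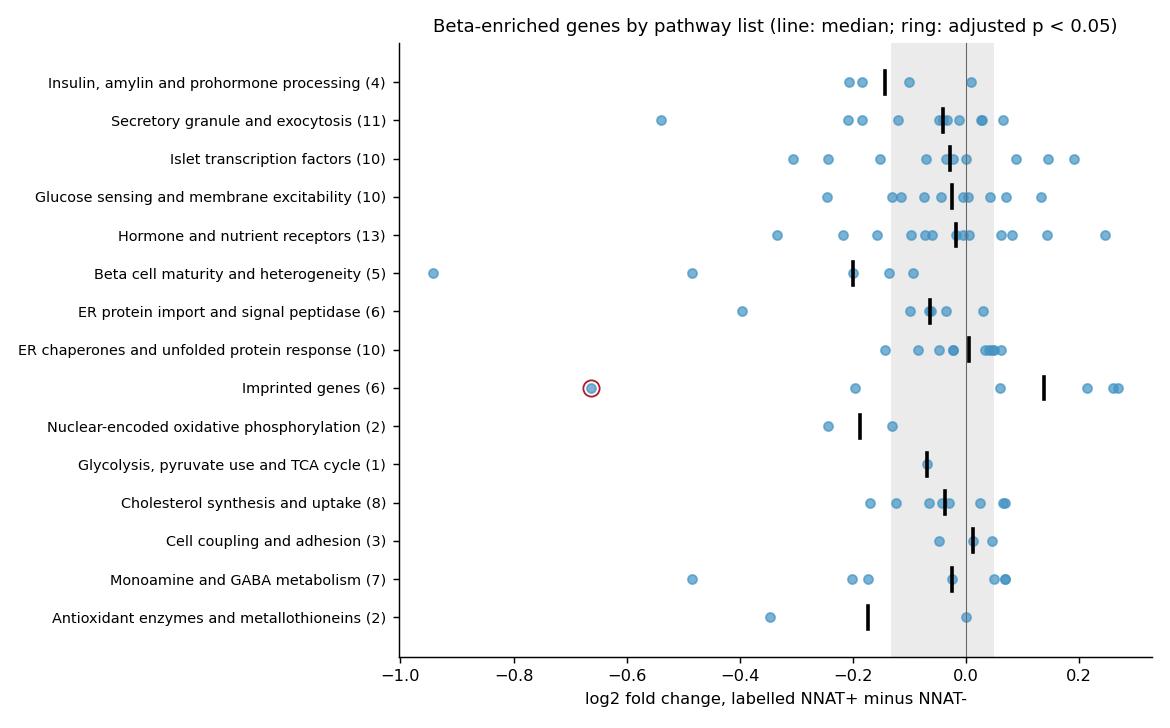
Log2 fold change of NNAT+ against NNAT- as labelled for the beta-enriched genes of 15 pathway lists, 1 point per gene, with the number of genes in brackets. Black lines are medians, the grey band is the interquartile range of all 924 beta-enriched genes, and the ring marks *Nnat*, the one gene called by edgeR, at -0.66.

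Levels also varied between mice. Over the 4 mice, the mean log2 CPM of a beta-enriched gene ranged by a median of 0.547. The median size of the fraction difference was 0.0945, and the range was the larger in 892 of 924 genes. A range over 4 mice tends to exceed a mean of 4 differences by construction, so this count does not weigh mice against fractions. In 212 genes the range was above 1, and mouse 4 was the farthest from the others in 177 of these. Of these 177, 65 stayed beta-enriched with the rule applied to mice 1 to 3 alone. The others passed the rule only with mouse 4, so that its distance is partly set by the rule. *Meg3* was at 38.3, 20.0 and 31.5 CPM in mice 1 to 3 of NNAT+ and 1203 CPM in mouse 4, and at 25.6, 18.8, 31.3 and 1061 CPM in NNAT-. *Malat1*, a nuclear noncoding RNA, was at 35.8 to 83.2 CPM in mice 1 to 3 and 1976 CPM in mouse 4 of NNAT+, and *Neat1*, the scaffold of paraspeckles, at 16.3 to 19.4 CPM and 388 CPM. The fitted differences between fractions were -0.04 for *Malat1* and 0.04 for *Neat1*. Samples with the same replicate number deviated together from their group means. The mean correlation over 4 pairs was 0.790 across the beta-enriched genes, which are not independent replicates, and 0.353 across all genes tested. The former includes genes that passed the rule only with mouse 4, so it is partly set by the rule.

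Mouse 4 had no non-beta library, so its beta libraries entered the ratio without a counterpart. With the rule applied to mice 1 to 3 alone, 761 genes were beta-enriched, of which 733 were shared with the 924, and 191 were not kept. The ratio of *Malat1* went from 5.97 to 0.609, that of *Meg3* from 12.2 to 0.969 and that of *Neat1* from 9.35 to 1.39. None of the 191 was called by edgeR, and DESeq2 called 1 of them, *Lifr*. Among the 761, 1 gene was called higher and 4 lower, the added one being *Gm15564*, and the median log2 fold change was -0.046. Restricting the rule to the 241 genes with a ratio of at least 4 left *Cntn1* and *Spc25* as the called genes.

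**Figure D5:**
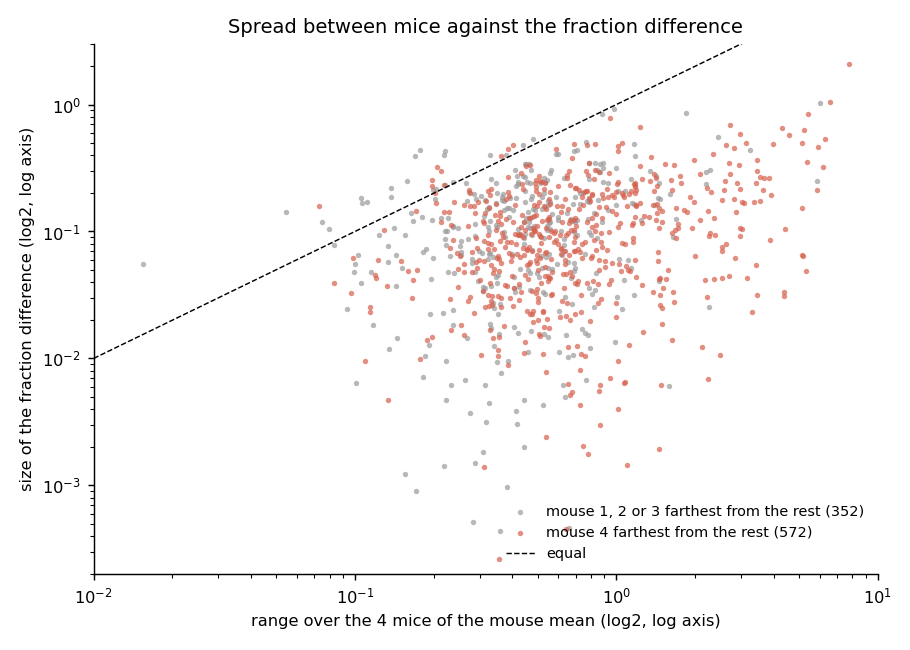
Size of the difference between fractions (vertical, log2 units on a log axis) against the range over the 4 mice of the mean log2 CPM (horizontal, log axis) for the 924 beta-enriched genes. Points under the dashed line, 892 of them, had a range larger than the fraction difference, which tends to occur by construction. Red points, 572 genes, had mouse 4 farthest from the other mice.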

How the data were processed

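The build mm10 and the tools STAR 2.7.1a and DESeq2 1.32.0 are named in the submitters' processing notes. The authors used STAR to align and count reads and deposited raw counts per gene, whole numbers without normalisation. Libraries were poly(A)-selected and directional; the strand setting used for counting is not given in the sources used here. Groups came from the sample labels, and the 55 pairs of libraries included 0 identical ones. By the methods, each replicate number is 1 mouse, so that same-numbered libraries were paired. The pairing was also checked in the data: deviations from the group means correlated at 0.224 to 0.681 between same-numbered libraries over all genes tested, and averaged -0.12 between others. In the blocked fits, p-values set the fraction difference against its spread over these 4 mice, after the block removes each mouse's level. That spread is estimated partly from other genes, so it is not the gene's own spread alone.

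The 8 beta libraries were fitted in R 4.3.3 with edgeR 4.0.16 (filterByExpr, TMM, quasi-likelihood test, mouse as block). P-values were adjusted by Benjamini-Hochberg over all 14489 genes tested and called below 0.05. SE was taken as the log2 fold change over the root of the F statistic, and CIs are at 95%. Levels in log2 CPM used a prior count of 2. A floor of 3 counts was at most 0.0986 CPM. CPM compares libraries, not genes of unequal length. DESeq2 1.42.0, other scalings and filters, stricter rules, an unblocked fit and leaving out each mouse were alternatives, and scaling by column totals and membership from mice 1 to 3 were added after the data were seen. The test was checked on simulated data.

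The members, 17 pathway lists, 11 marker lists and tests were chosen with earlier results of these data known. Lists are described by edgeR calls, with DESeq2 calls named where they differ. Named genes were *Nnat*, the 12 members with the smallest p in each direction, the 2 highest and the 2 with the smallest p of each list, and the 3 nearest to each threshold. Other list members shown for their role, and genes of the mouse comparison, were named after their values were seen. Some genes that this rule names are not reported here. Coordinates came from gencode release M21 and promoters from RefSeq, both on GRCm38.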

Additional observations from a re-analysis of the deposited data

Results flagged for a closer look

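Each of the 61 named genes was examined in both beta cell groups, 122 groups of 4 libraries in all, for 1 library far from the other 3. Chance alone marks about 1 in 20 such groups, and 12 were marked, 11 of them in a library of mouse 4. The groups share the same 8 libraries and are not independent, so this count is not a test against chance. *Meg3* and *Rian* were not beta-enriched by mice 1 to 3 alone, at ratios of 0.97 and 0.96. Their marks in mouse 4 are thus partly set by the rule.

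*Meg3* was at 1203 CPM in the NNAT+ library of mouse 4, beside 20.0 to 38.3 CPM in the others, and at 1061 CPM in its NNAT- library. *Rian* was at 692 CPM and 674 CPM in the same libraries, beside 82.3 to 121 CPM in all others. *Ccdc162*, a coiled-coil protein gene, was at 75.6 CPM and 60.8 CPM there, and *Nnat* at 101 CPM in the NNAT+ library, beside 44.1 to 47.8 CPM.

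Low values in the NNAT+ library of mouse 4 were 2440 CPM for *Atp2a2*, 454 CPM for *Ucn3*, 543 CPM for *Srpr* and 166 CPM for *Pcx*, where the other 3 libraries were at least 3295, 648, 745 and 241 CPM. *Esrrg* was at 34.3 CPM in the NNAT- library of mouse 2, beside 22.0 to 23.8 CPM in the other mice.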

How the results depend on the processing

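The count of beta-enriched genes called higher and lower in the libraries labelled NNAT+, 1 and 3, was the same with RLE size factors, and 1 and 2 with TMM factors from these genes alone. DESeq2 called 3 and 17, where it called 0.78% and 0.145% of all genes tested. No filter on low counts gave 5 and 20, beside 165 and 34 of the 25450 genes tested there. The fit with no replicate block, in place of the pairing by mouse, called 0 and 0, as did the fit of all 11 libraries and the study's thresholds (adjusted p below 0.01 and over 2-fold). At an unadjusted p below 0.05, 3 and 18 genes were counted without the block, beside 200 and 94 of all 14489 tested. With 11 libraries they were 10 and 20, beside 839 and 130 of 17424. Column totals gave 0 and 1, and a ratio of at least 4 gave 0 and 2. Leaving out each mouse gave 0 higher throughout and 0 to 4 lower, with medians from -0.040 to -0.022. The median moved to 0.0092 with factors from the beta-enriched genes, 0.0044 with 11 libraries and 0.033 with column totals. The cause of these moves was not tested.

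Among 61 named genes, sign changes were limited to values near 0. With factors from the beta-enriched genes, log2 fold changes became 4.1e-05 for *G6pc2*, 0.039 for *Glp1r*, 0.021 for *Hyou1* and 0.044 for *Nqo1*. Without a filter, *Glp1r* had 0.00077 and *Nqo1* 0.0050. With 11 libraries, *Glp1r* had 0.038, *Hyou1* 0.014 and *Nqo1* 0.061. With column totals, *Chga* had 0.020, *G6pc2* 0.024, *Glp1r* 0.063, *Spcs3* 0.0024, *Hyou1* 0.045, *Robo1* 0.021 and *Nqo1* 0.066. Leaving out 1 mouse at a time gave ranges across 0 of -0.14 to 0.053 for *Chga*, -0.021 to 0.019 for *Glp1r*, -0.0069 to 0.056 for *Srpr*, -0.044 to 0.13 for *Rian* and -0.24 to 0.18 for *Nqo1*. With 4 mice, at a median SE of 0.092, differences smaller than about 2 SEs could not be resolved even in a single gene. Calls at an adjusted p of 0.05 in edgeR needed more. *Gucy2c*, at -0.50 with an SE of 0.08, was not called, so a gene without a call may still differ.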
